A study of Mus musculus with 16 samples.

Results

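The proteasome is the protease that takes ubiquitin-tagged proteins apart, and its subunits were followed here as mRNA and as ribosome-protected fragments (RPFs) in mouse lung tumour cells with and without the translation factor eIF4A2. Genes were chosen by symbol alone, as Psm followed by a letter from a to g and a number. 50 of the 20622 genes in the total RNA tables matched, and 1 of them, Psmc3ip, encodes a recombination cofactor and no proteasome subunit, so it was counted and set apart. The remaining 49 comprised 14 constitutive core subunits, 17 regulatory particle subunits, 3 immunoproteasome subunits, 2 tissue-specific core subunits, 4 activator subunits, the inhibitor Psmf1, 7 assembly chaperones and Psme2b, a near-copy of the activator gene Psme2.

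KM cells came from lung tumours of 1 clinical-endpoint male mouse, in which Cre had switched on MYC from both Rosa26 alleles together with a further allele not reported here, and both lines compared here carry these alleles. KMNTC cells had received a lentiCRISPR vector with a non-targeting guide, and KM4A2cr cells a guide against the coding region of Eif4a2, after which 4 clones negative for the eIF4A2 protein were pooled. All cells were untreated and harvested at 90% confluency. Each line gave 4 numbered replicates, and each lysate gave 1 RPF library and 1 cytoplasmic total RNA library, 16 in all. The comparison asks which mRNAs ribosomes occupied differently once eIF4A2 was lost. Since KM4A2cr is a pool of selected clones, a change in all cells and a change in the share of a clone cannot be told apart.

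In the assembled particle, alpha and beta rings stack into a barrel whose inner beta subunits Psmb5, Psmb6 and Psmb7 cut proteins. A regulatory particle caps the barrel: its ring of ATPases (Psmc genes) unfolds substrates, and its non-ATPase subunits (most Psmd genes) bind and remove ubiquitin. Interferon induces Psmb8, Psmb9 and Psmb10, the immunoproteasome forms, which take the place of the catalytic subunits and favour peptides for antigen presentation. Cells short of proteasome activity raise most subunit genes together through the transcription factor Nfe2l1.

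RPF libraries held between 4512403 and 9621848 counts in coding sequences, and total RNA libraries between 5350920 and 9312624. RPFs of Eif4a2 were lower in KM4A2cr in each of 4 pairs, with a log2 fold change of -0.49 (SE 0.15, adjusted p = 0.0941 by edgeR). The total RNA fold change of the gene was -0.18 (SE 0.13, adjusted p = 0.504 by edgeR). Such counts cannot show whether the reading frame was intact. The 5 epithelial markers (Epcam, Krt8, Krt18, Krt19 and Cdh1) summed to between 6814 and 11295 CPM (counts scaled to the size of the library) in RPFs. Of 7 alveolar type II markers only Abca3 and Etv5 had RPFs, and Sftpc, the defining surfactant gene, had 0 counts of total RNA and was not listed in the RPF tables. Replicate 4 stood apart in both lines: the macrophage and lysosome gene Cd68 had 777 and 695 CPM in RPFs there against 74.0 to 126 in replicates 1 to 3, while the other immune markers Ptprc, Adgre1, Cd3e and Lyz2 were at or near 0. Summed RPFs of the 5 immune markers, 4 of which had counts, ran from 74.5 to 778 CPM in KMNTC and from 97.9 to 695 CPM in KM4A2cr. Those of 5 fibroblast markers, 2 with counts, ran from 2.63 to 21.4 CPM in KMNTC and from 4.59 to 14.3 CPM in KM4A2cr, again highest in replicate 4, and Col1a2, Dcn and Lum had 0. Counts of members called are therefore given with and without replicate 4, as are those of several single genes. The samples are labelled by replicate number only. What set replicate 4 apart, and its part in these counts, was not tested.

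Most proteasome subunits had fewer RPFs in KM4A2cr cells, by small amounts. Of the 50 genes, 46 had enough RPFs to be tested, and 42 of these had a log2 fold change below 0, or 91.3% beside 51.1% of all 10291 genes tested. Their median log2 fold change was -0.18, against -0.01 for all genes. Only Psmb7, Psmf1 and Psmb10 passed an adjusted p of 0.1, all of them lower in KM4A2cr. This is 6.52% of the members tested, beside 3.72% of all genes called lower. Called higher were 0 members, beside 6.60% of all genes. At an unadjusted p under 0.05, by edgeR or DESeq2, 0 members were higher as well. The members' standard errors had a median of 0.13 on the log2 scale, close to the size of the shared difference, and 9 of 46 had an unadjusted p under 0.05 by edgeR, beside 23.4% of all genes.

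**Figure D1:**
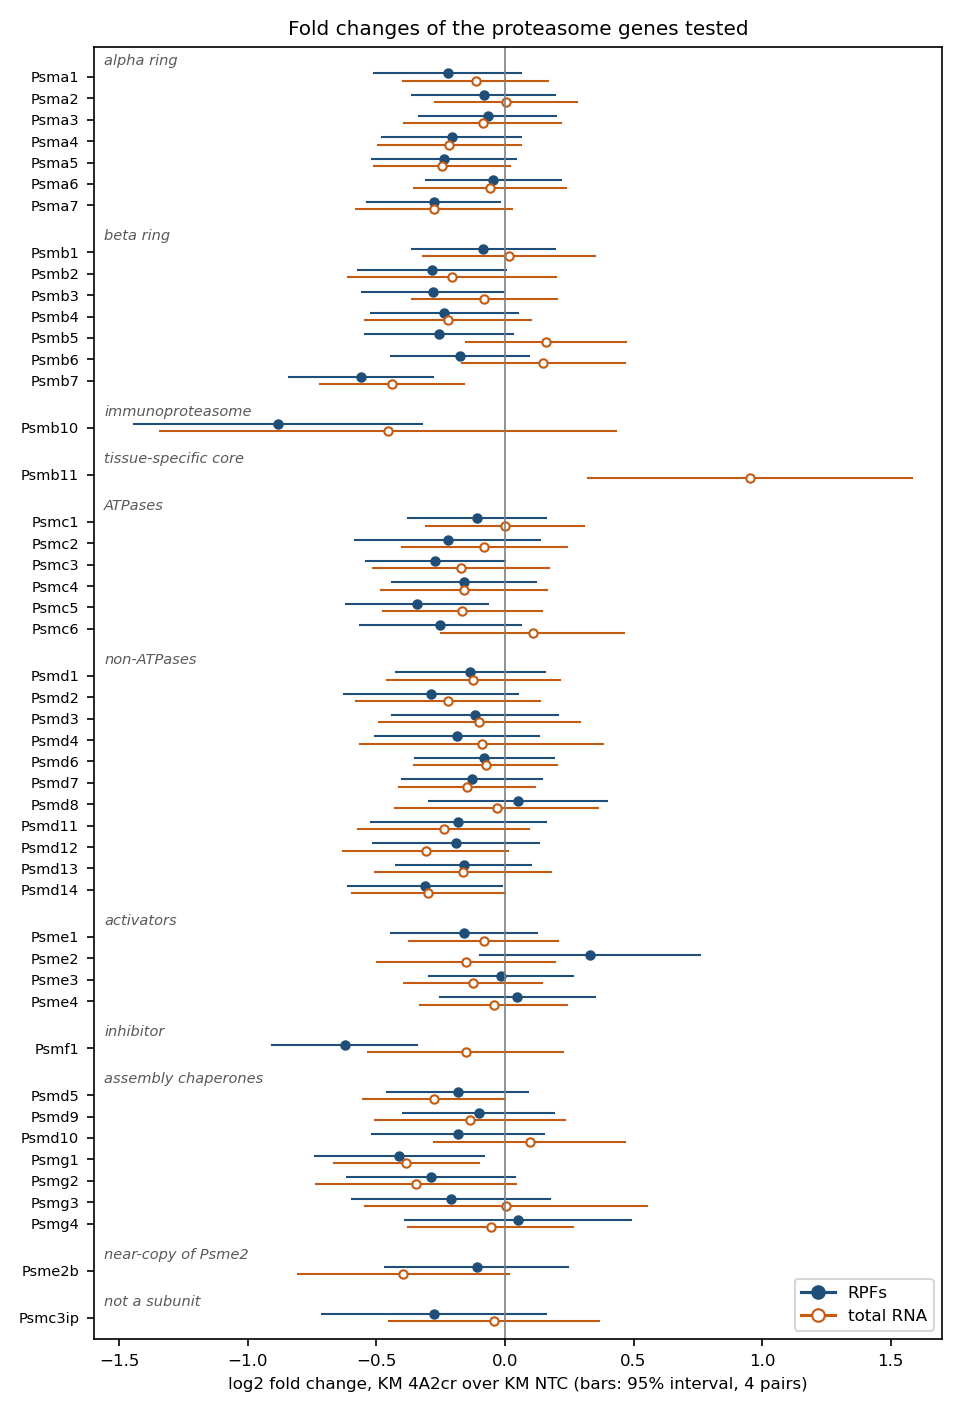
Log2 fold change of each tested proteasome gene, KM4A2cr over KMNTC, with its 95% interval from 4 pairs, in RPFs (filled points) and total RNA (open points), grouped by class. All 14 core subunits lie below 0 in RPFs, with Psmb7 lowest at -0.56, whereas Psmb5 and Psmb6 lie above 0 in total RNA.

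Over the 4 pairs together the particle's main parts had similar RPF medians. All 14 core subunits had RPF log2 fold changes below 0, from -0.56 for Psmb7 to -0.05 for Psma6, with a median of -0.23. Within the core, the alpha ring had a median of -0.21 and the beta ring one of -0.26. 16 of 17 regulatory subunits were below 0, with a median of -0.18, from -0.34 for the ATPase Psmc5 to 0.05 for Psmd8. The 6 ATPases had a median of -0.24 and the 11 non-ATPases one of -0.16. Among 7 assembly chaperones, which help the rings and the base come together, the median was -0.18 and Psmg1 was lowest at -0.41. The 4 activators, which cap the barrel in place of the regulatory particle and open it without ubiquitin, had a median of 0.02. No test of the difference between these classes was made.

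Psmb7, the core subunit with trypsin-like activity, was the constitutive subunit with the lowest RPF fold change. Its RPFs were 305, 351, 293 and 206 CPM in KMNTC replicates 1 to 4 and 210, 226, 179 and 162 CPM in KM4A2cr. Every pair was lower in KM4A2cr, although the highest KM4A2cr libraries lay above KMNTC replicate 4. The RPF log2 fold change was -0.56 (SE 0.12, 95% interval -0.84 to -0.28, adjusted p = 0.0393 by edgeR). This RPF call of Psmb7 was lost without replicate 1, 2 or 3 and without the replicate block. Its total RNA was 117, 124, 108 and 83.4 CPM in KMNTC and 76.4, 82.5, 83.3 and 74.2 CPM in KM4A2cr, so that the lines did not overlap. Psmb7 (ENSMUSG00000026750.7) was the only member called in total RNA, at -0.44 (SE 0.13, adjusted p = 0.0959 by edgeR).

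Psmf1 (ENSMUSG00000032869.16), which encodes an inhibitor that binds the core particle, was the second gene called lower. RPFs of Psmf1 were 41.3, 51.1, 41.8 and 32.9 CPM in KMNTC and 28.5, 32.7, 24.3 and 22.9 CPM in KM4A2cr. The lines did not overlap, and the log2 fold change was -0.62 (SE 0.13, 95% interval -0.91 to -0.34, adjusted p = 0.0285 by edgeR). This call too was lost without replicate 1, 2 or 3 and without the replicate block. Total RNA of Psmf1 overlapped between the lines, at 9.01 to 17.4 CPM in KMNTC and 9.47 to 14.4 in KM4A2cr, with a log2 fold change of -0.15 (SE 0.17, adjusted p = 0.689 by edgeR).

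Psmb7 and Psmf1 share a chromosome with other genes of the same direction. In the RefSeq annotation of GRCm38.p6 both lie on chromosome 2, as do Psma7, Psmc3, Psmd5 and Psmd14. Of the 833 genes tested there in RPFs, 593 had a fold change below 0 (71.2%, beside 51.1% of all genes), with a median of -0.21. Called lower were 85 of the 833, beside 383 of all 10291 genes (3.72%). In total RNA the median of chromosome 2 genes was -0.17, with 667 of 900 below 0 (74.1%, beside 48.4% of all genes). Called lower there were 48 of the 900, beside 194 of all 10880 genes (1.78%). The 6 proteasome genes on chromosome 2 had an RPF median of -0.30, and the 40 tested members on other chromosomes had one of -0.18 with 36 of 40 below 0. Whether a difference of the whole chromosome between the lines contributed to Psmb7 and Psmf1 was not tested.

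The remaining call, Psmb10, concerned an immunoproteasome subunit that was scarce in both lines. Psmb10 (ENSMUSG00000031897.10) had 4.16, 3.97, 5.07 and 1.47 CPM of RPFs in KMNTC and 2.78, 1.97, 2.10 and 1.08 CPM in KM4A2cr, from 130 and 58 counts. Each pair was lower in KM4A2cr, and the log2 fold change was -0.88 (SE 0.25, adjusted p = 0.0804 by edgeR). The call was lost with DESeq2 (adjusted p = 0.27), without the replicate block and without replicate 1, 2 or 3. Its total RNA did not follow one direction, with pair differences of 0.58, -1.68, -0.46 and 0.00 on the log2 scale. Its TPM in KMNTC, 3.98 ± 2.04 (SD, n = 4), was far under the 196 ± 58.3 TPM of Psmb7, the constitutive subunit whose place it takes.

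The other immunoproteasome subunits were at or near the detection limit. Psmb8, the counterpart of Psmb5, was listed in none of the RPF tables, which hold 58711850 counts over 8 libraries, and was taken as 0 RPFs, and it had 2 counts of total RNA. Psmb9, the counterpart of Psmb6, had 3 RPFs and 2 counts of total RNA, and both were therefore not tested. Psma8, the testis form of an alpha subunit, was not listed in the RPF tables either and had 0 counts of total RNA. Psmb11, the thymus form of a catalytic subunit, was listed with 0 RPFs, which allows up to 0.0511 CPM for counting error alone, but had 128 counts of total RNA, with 1.85 ± 1.58 CPM in KMNTC and 3.78 ± 3.53 in KM4A2cr (SD, n = 4) and a log2 fold change of 0.95 (SE 0.29, adjusted p = 0.106 by edgeR).

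**Figure D2:**
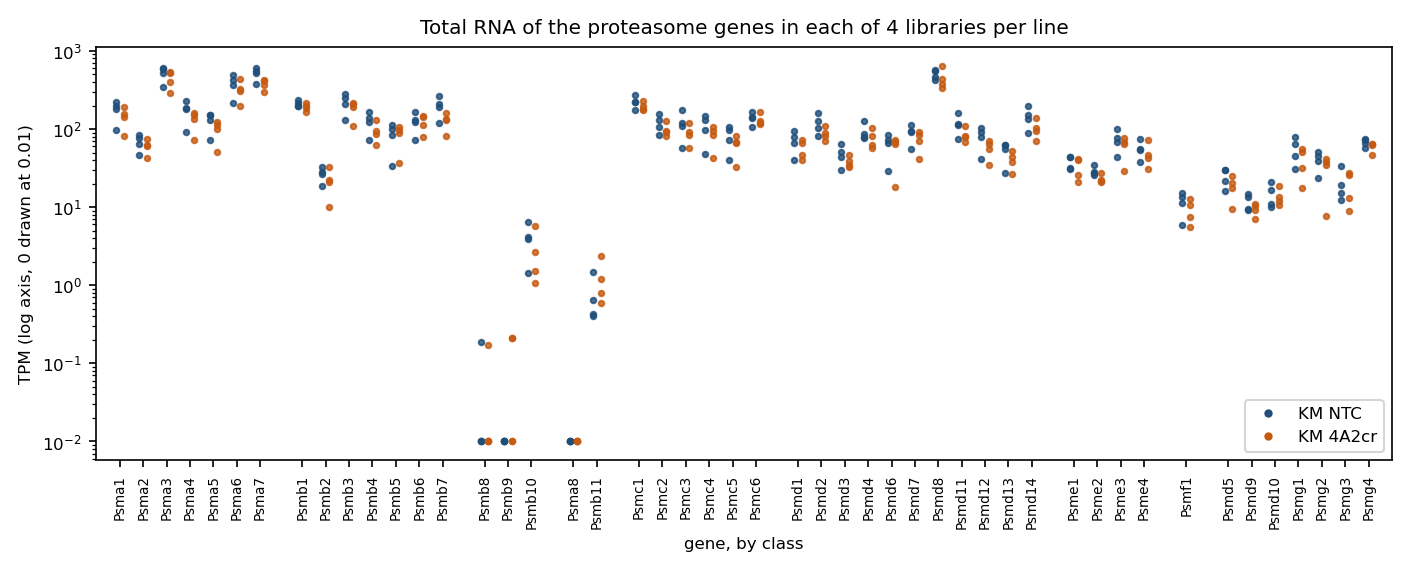
Total RNA of each proteasome gene as TPM, a level per transcript length (log axis), with 1 point per library, 4 per line. Of the core subunits Psmb2 is lowest, at 10.1 to 32.3 TPM, and Psmb8, Psmb9 and Psma8 are at or near 0 in both lines.

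Subunits that enter the core in equal number were not equal as mRNA. Within each of 8 total RNA libraries the TPM of the 14 core subunits had a coefficient of variation between 66.9% and 82%. Psmb2 was the scarcest in every library, at 10.1 to 32.3 TPM, and Psma3 or Psma7 the most abundant, so that the extremes differed by 12.7 to 29.6 times. The level of Psmb2 is uncertain, since its RPFs (136 CPM in KMNTC) far exceeded its total RNA (10.3 CPM), and whether reads of Psmb2 were assigned to other transcripts was not tested. In the regulatory particle Psmd8 was the most abundant mRNA in every library, at 338 to 645 TPM, and the lowest subunit was Psmd3, Psmd13 or Psmd6.

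Within replicate pairs the members were lower in KM4A2cr in pairs 1 to 3 but not in pair 4. Their median RPF difference was -0.23, -0.26 and -0.26 on the log2 scale in pairs 1, 2 and 3, and -0.02 in pair 4. In total RNA the medians were -0.25, -0.23, -0.20 and 0.20. Of 46 members, 37 (80.4%) had lower RPFs in each of pairs 1 to 3, beside 28.4% of all genes, and 18 (39.1%) in all 4 pairs, beside 16.0%. In total RNA these counts were 31 of 47 (66.0%, beside 25.2%) and 7 of 47 (14.9%, beside 13.0%). The core and regulatory particles parted in RPFs of pair 4, with medians of -0.07 and 0.15. There 10 of 14 core and 6 of 17 regulatory subunits were below 0. Lower in all 4 pairs were 8 of 14 core and 5 of 17 regulatory subunits. This difference was not tested. The counts over pairs 1 to 3 were chosen after the values of pair 4 had been seen.

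**Figure D3:**
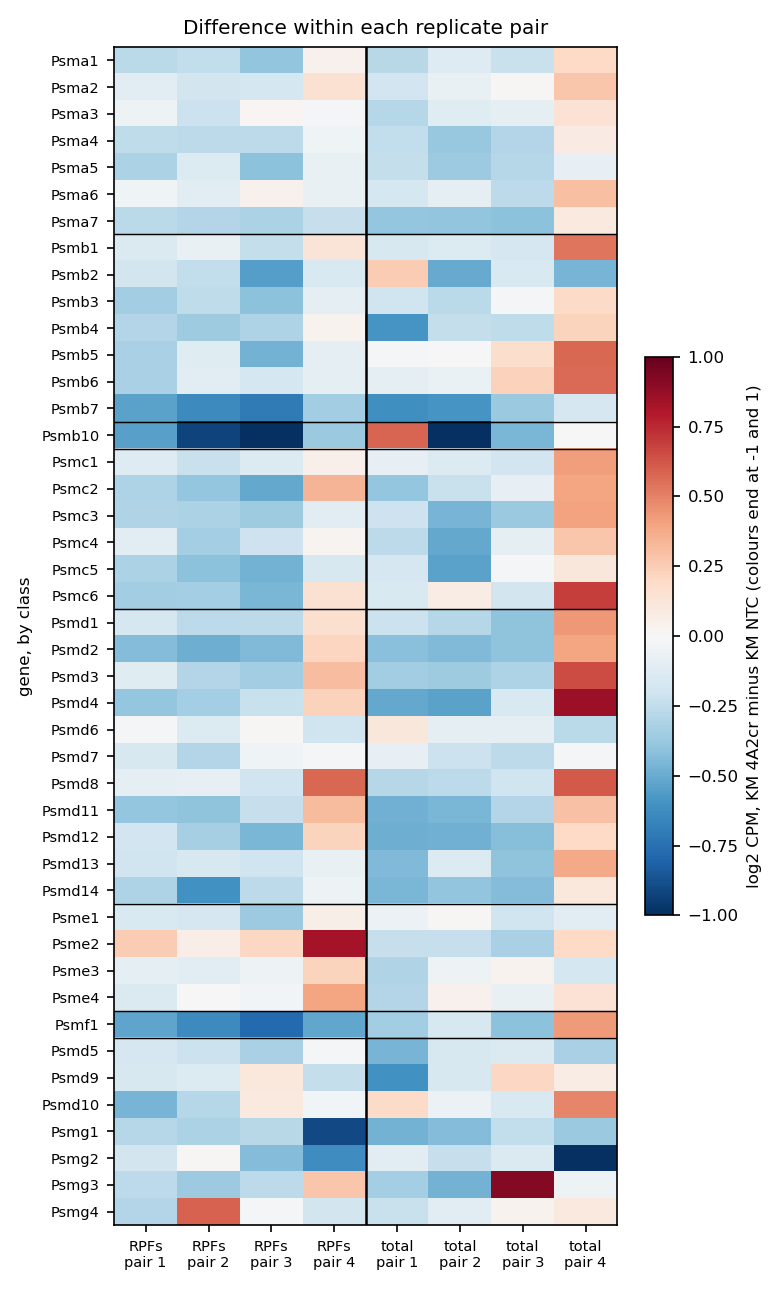
Difference in log2 CPM, KM4A2cr minus KMNTC, for each tested subunit and associated gene (rows, grouped by class) in each replicate pair (columns) of RPFs and total RNA. Blue, or lower in KM4A2cr, fills pairs 1 to 3, and pair 4 has many subunits in red, most of them in total RNA.

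The shares of whole libraries followed the same pattern. The 50 genes took 0.779%, 0.899%, 0.652% and 0.459% of RPF counts in KMNTC and 0.560%, 0.670%, 0.495% and 0.487% in KM4A2cr. In total RNA they took 0.463%, 0.525%, 0.427% and 0.333% in KMNTC and 0.344%, 0.407%, 0.336% and 0.364% in KM4A2cr. KMNTC replicate 4 had the lowest share of its group in both kinds of library. The share was thus lower in KM4A2cr in 3 of 4 pairs and higher in pair 4. Psmd8 alone held 3094 of the 26189 RPF counts of the 50 genes in KMNTC replicate 4. In KM4A2cr replicate 4 it held 3596 of 21978, so the RPF rise of pair 4 leaned on this gene. Of 46 members tested in RPFs, 26 were lower in KM4A2cr in pair 4.

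**Figure D4:**
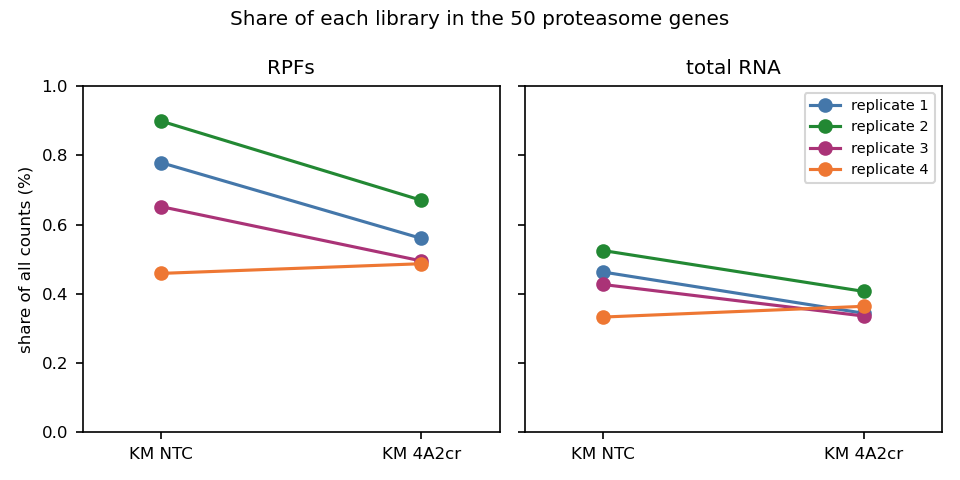
Share of all counts of a library (%) that fell in the 50 proteasome genes, in RPFs and total RNA, with the libraries of 1 replicate joined by a line. Lines 1 to 3 go down from KMNTC to KM4A2cr, from 0.899% to 0.670% for replicate 2 in RPFs, and replicate 4 goes from 0.459% to 0.487%.

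Without replicate 4 many more subunits passed the test. In RPFs 23 of 46 members (50.0%) were called lower and 0 higher, beside 14.3% of all genes called lower in the same fit, and the median was -0.26. These included 9 of 14 core and 11 of 17 regulatory subunits. In total RNA 20 of 47 members (42.6%) were called lower, beside 12.0% of all genes, among them 5 core and 12 regulatory subunits. When replicate 1, 2 or 3 was left out, edgeR called few genes of any kind: 0.733%, 0.282% and 0.029% of all genes were called lower in RPFs and 0.672%, 0.352% and 0.119% in total RNA. In these fits 0 members were called in either kind of library, with 4, 3 and 2 members at an unadjusted p under 0.05 in RPFs and 4, 1 and 3 in total RNA. Without the replicate block edgeR called 0% of all genes in both kinds and so 0 members, with 2 members at an unadjusted p under 0.05 in RPFs and 1 in total RNA. With no scaling factor beside library size, a setting that moved the median of all genes by over 0.1 and called more genes lower, 10 members were called lower in RPFs beside 11% of all genes, where 15.7% were called in all and 10.3% in the fit reported. The members had a median below 0 in every one of these fits, between -0.32 and -0.14 in RPFs.

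Regulatory subunits gave examples of calls that depended on replicate 4. Without it 33.4% of all genes were called in RPFs, beside 10.3% with it. Psmd14, the deubiquitinase of the lid, had 186, 219, 143 and 129 CPM of RPFs in KMNTC and 150, 144, 119 and 124 CPM in KM4A2cr. The lines were closest in replicate 4, and the log2 fold change was -0.31 (SE 0.13, adjusted p = 0.197 by edgeR) with it and -0.40 (adjusted p = 0.0148 by edgeR) without it. Psmc5, an ATPase of the base, had 159, 148, 139 and 76.4 CPM in KMNTC and 128, 112, 100.0 and 68.4 CPM in KM4A2cr, lower in each of 4 pairs. Its log2 fold change moved little beside its SE of 0.12, from -0.34 (adjusted p = 0.138 by edgeR) to -0.40 (adjusted p = 0.0097 by edgeR). Psmd8, a lid subunit, went the other way in replicate 4, with RPFs of 649 CPM in KMNTC and 968 CPM in KM4A2cr against 293 to 413 CPM in the other 6 libraries. Its log2 fold change was 0.05 (SE 0.15, adjusted p = 0.874 by edgeR) with replicate 4 and -0.12 without it.

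Members with RPF fold changes near 0 were found in every large class. In the alpha ring Psma7 had the lowest fold change, with 440, 431, 428 and 465 CPM in KMNTC and 365, 352, 343 and 397 CPM in KM4A2cr. The lines did not overlap, at a log2 fold change of -0.28 (SE 0.12, adjusted p = 0.185 by edgeR). Psma6, of the same ring, had 167 to 253 CPM in KMNTC and 159 to 234 in KM4A2cr and a log2 fold change of -0.05 (SE 0.12, adjusted p = 0.844 by edgeR). Psmb1 was nearest to 0 in the beta ring at -0.09, and Psmc1 in the ATPase ring at -0.11. The chaperone Psmg4 was at 0.05 (SE 0.19) and Psmg1, which also helps to assemble the alpha ring, at -0.41 (SE 0.15, adjusted p = 0.135 by edgeR), from 21.8 to 42.6 CPM in KMNTC and 11.6 to 35.1 in KM4A2cr.

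The activators did not share a direction in RPFs over the 4 pairs. In total RNA all 4 were below 0, from -0.15 for Psme2 to -0.04 for Psme4, with 0 called by edgeR. Psme1 and Psme2 form the interferon-inducible cap, Psme3 a nuclear cap and Psme4 a large single-chain cap. Psme1 had an RPF log2 fold change of -0.16 (SE 0.13), Psme3 one of -0.01 (SE 0.12) and Psme4 one of 0.05 (SE 0.13), none called by edgeR. Without replicate 4 Psme3 and Psme4 were at -0.09 and -0.06, again not called. RPFs of Psme1, Psme3 and Psme4 were lower in KM4A2cr in each of pairs 1 to 3. Psme2 had 5.16 to 6.08 CPM of RPFs in KMNTC and 5.41 to 11.0 in KM4A2cr, with a log2 fold change of 0.33 (SE 0.19, adjusted p = 0.332 by edgeR). Psme2 and Psme2b can exchange reads, since their sequences are near-copies, and their values are uncertain for that reason. Psmc3ip, which is no subunit, had an RPF log2 fold change of -0.28 (SE 0.19, adjusted p = 0.43 by edgeR).

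Total RNA fold changes were below 0 for most subunits too. Of 47 members tested, 38 had a total RNA log2 fold change below 0 (80.9%, beside 48.4% of all 10880 genes), with a median of -0.12. Psmb7 was the only call, 2.13% of members beside 1.78% of all genes called lower, and 0 members were called higher by edgeR or DESeq2 beside 4.35% of all genes, with Psmb11 the only one higher at an unadjusted p under 0.05. With no filter on low counts edgeR did call Psmb11 higher. The call of Psmb7 was lost with DESeq2 and with counts of the RPF isoform only, at adjusted p = 0.116 and 0.115, in a range from 0.00043 to 0.999 over 12 alternatives. The core had a median of -0.10 with 10 of 14 subunits below 0, and the regulatory particle one of -0.15 with 15 of 17 below 0.

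The catalytic subunits Psmb5 and Psmb6 had fold changes of opposite sign in RPFs and total RNA, none of them called. Psmb5 (ENSMUSG00000022193.8), which carries the chymotrypsin-like activity, had 109, 114, 131 and 55.2 CPM of RPFs in KMNTC and 86.5, 105, 94.4 and 52.0 in KM4A2cr. Its total RNA was 35.1, 32.7, 28.3 and 13.8 CPM in KMNTC and 34.7, 32.7, 32.0 and 20.7 CPM in KM4A2cr. RPFs were thus lower in KM4A2cr in every pair, at -0.26 (SE 0.13, adjusted p = 0.261 by edgeR), while total RNA was nearly equal in pairs 1 and 2 and higher in pairs 3 and 4, at 0.16 (SE 0.14, adjusted p = 0.599 by edgeR). Psmb6 (ENSMUSG00000018286.7), with caspase-like activity, had an RPF log2 fold change of -0.18 (SE 0.12) and a total RNA one of 0.15 (SE 0.14). Without replicate 4 the total RNA fold changes were 0.04 for Psmb5 and 0.01 for Psmb6, and the RPF fold change of Psmb5 was called lower, at -0.31 (adjusted p = 0.0482 by edgeR). With all replicates and library size only, total RNA of Psmb6 was at -0.007.

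**Figure D5:**
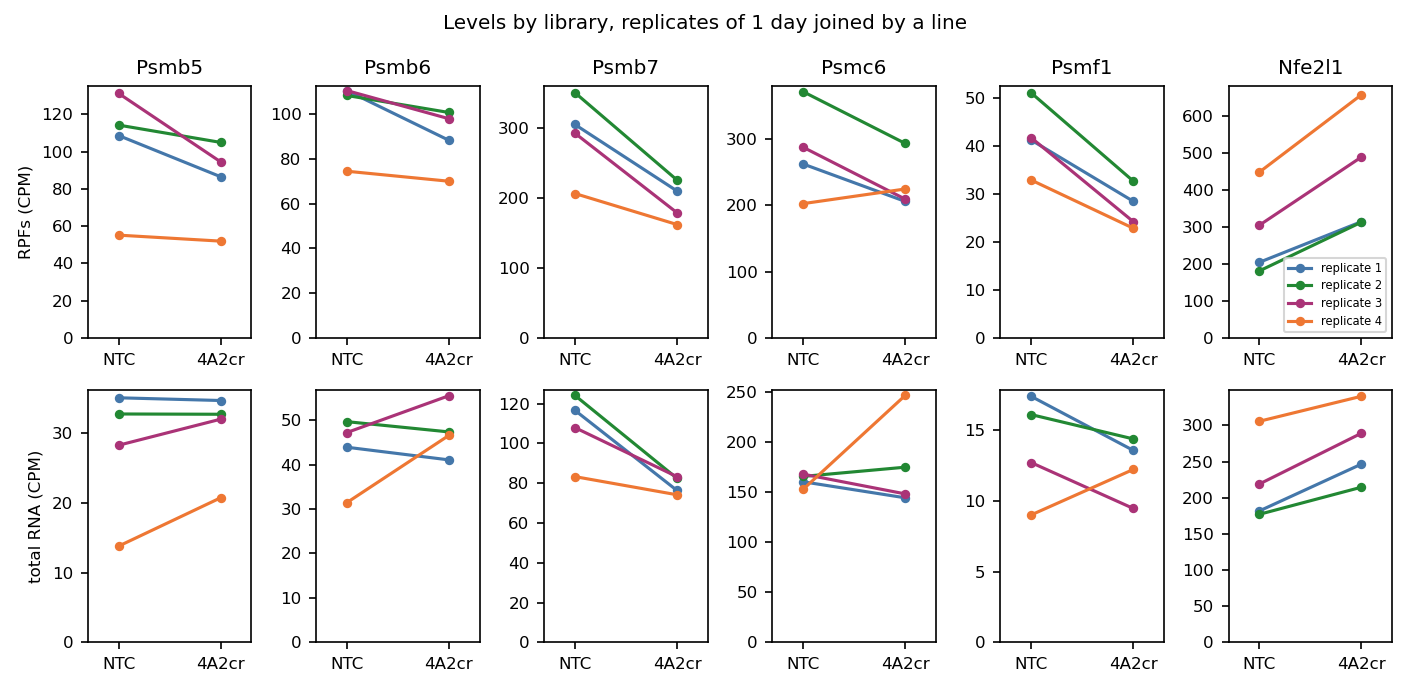
CPM of RPFs (upper panels) and total RNA (lower panels) of 6 genes in each library, with KMNTC and KM4A2cr of 1 replicate joined by a line. Psmb7 goes down in all 8 pairs, Nfe2l1 goes up in all 8, and Psmb5 goes down in RPFs but not in total RNA.

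Translational efficiency, the RPF change relative to the total RNA change, was tested in 1 model over 16 libraries. For the members as a whole it was close to 0, with a median of -0.01 over 46 members and 26 below 0 (56.5%, beside 52.6% of all 9989 genes). All 7 beta ring subunits were below 0, with a median of -0.12, and 2 of 7 alpha ring subunits were, with a median of 0.01. Of the beta ring, 4 of 7 were below 0 in pair 1 and 4 of 7 in pair 2. Only 2 of 7 were below 0 in all 4 pairs, and 5 of 7 were without replicate 4. Psmb4 was at -0.01, and Psmb2, whose total RNA is uncertain, at -0.09 (SE 0.16). Psmc6 was the only member called, or 2.17% beside 1.00% of all genes called lower, and 0 members were called higher by edgeR or DESeq2 beside 1.87%, with Psme2 alone higher at an unadjusted p under 0.05 by edgeR.

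Psmc6 (ENSMUSG00000021832.9), an ATPase of the base, had 263, 372, 288 and 203 CPM of RPFs in KMNTC and 206, 294, 210 and 225 in KM4A2cr. Its total RNA was 160, 166, 168 and 153 CPM in KMNTC and 144, 175, 148 and 246 CPM in KM4A2cr. In pairs 1 and 3 RPFs were lower in KM4A2cr by more than total RNA was, in pair 2 RPFs were lower and total RNA was higher, and in pair 4 both were higher in KM4A2cr, total RNA by more. The log2 difference in efficiency was -0.36 (SE 0.09, adjusted p = 0.0687 by edgeR), with pair values of -0.20, -0.42, -0.28 and -0.54. Psmb5 had an efficiency difference of -0.40 (SE 0.12, adjusted p = 0.108 by edgeR), Psmb6 of -0.30 (SE 0.11, adjusted p = 0.194 by edgeR) and Psmf1 of -0.45 (SE 0.16, adjusted p = 0.158 by edgeR), each below 0 in all 4 pairs but not called. Without replicate 4 these were -0.33, -0.20 and -0.33, again not called, and Psmc6 was at -0.28 (adjusted p = 0.0579 by edgeR). The call of Psmc6 was lost without replicate 1, 2 or 3, without the replicate block and with library size only, over a range of adjusted p from 0.0386 to 1. Psme2 was highest at 0.49 (SE 0.20, adjusted p = 0.251 by edgeR).

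Promoter sequence is shown for Psmb5, Psmb6 and Psmc6, the constitutive subunits with the lowest efficiency differences, whose total RNA fold changes lay above 0 with all replicates (Psmc6 was at -0.09 without replicate 4), and for Psmf1, which was called lower in RPFs. Each is the 250 bases before the RefSeq start in GRCm38.p6, written from 5′ to 3′ along the gene. Capitals mark matches to TGACNNNGC on either strand, the core letters of the element through which Nfe2l1 and its Maf partners act on subunit genes. CCAAT on either strand, a general promoter element, was also searched and would be in capitals, but is absent from these windows.
Psmb5 (chr14:54617996-54618245, minus strand): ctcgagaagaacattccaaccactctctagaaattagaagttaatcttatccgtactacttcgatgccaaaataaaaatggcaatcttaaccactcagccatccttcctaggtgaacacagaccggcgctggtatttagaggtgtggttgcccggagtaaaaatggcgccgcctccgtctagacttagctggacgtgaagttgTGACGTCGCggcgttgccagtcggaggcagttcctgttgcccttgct
Psmb6 (chr11:70525107-70525356, plus strand): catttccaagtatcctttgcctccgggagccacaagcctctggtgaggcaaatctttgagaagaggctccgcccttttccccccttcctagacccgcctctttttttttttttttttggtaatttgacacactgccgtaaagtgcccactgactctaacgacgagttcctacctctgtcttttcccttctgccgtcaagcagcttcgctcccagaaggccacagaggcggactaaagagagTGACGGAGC
Psmc6 (chr14:45329574-45329823, plus strand): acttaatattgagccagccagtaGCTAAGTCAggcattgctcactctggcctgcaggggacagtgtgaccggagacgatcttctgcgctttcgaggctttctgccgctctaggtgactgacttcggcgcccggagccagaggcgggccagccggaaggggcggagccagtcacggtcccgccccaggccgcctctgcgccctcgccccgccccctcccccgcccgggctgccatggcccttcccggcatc
Psmf1 (chr2:151741311-151741560, minus strand): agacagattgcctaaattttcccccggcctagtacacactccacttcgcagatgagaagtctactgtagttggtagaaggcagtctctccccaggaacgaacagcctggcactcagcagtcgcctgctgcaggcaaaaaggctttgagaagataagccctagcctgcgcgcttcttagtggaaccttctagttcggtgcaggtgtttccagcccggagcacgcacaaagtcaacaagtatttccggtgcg
The match lay 47 bases before the start in Psmb5, 9 bases before it in Psmb6 and, on the reverse strand, 227 bases before it in Psmc6. Of the 42 members with a promoter in the table, 5 (11.9%) held TGACNNNGC, the other two being Psmd9 and Psmd12, beside 11.5% of 27025 genes. The longer form TGACTCAGC was in 0 of 42 members and in 0.426% of genes. CCAAT was in 15 members (35.7%) and in 37.5% of genes, so the shares among members were close to those among all genes.

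Nfe2l1 (ENSMUSG00000038615.18), the transcription factor that raises subunit genes when proteasome activity is short, rose in KM4A2cr. Its RPFs were 205, 181, 305 and 449 CPM in KMNTC and 315, 313, 490 and 658 CPM in KM4A2cr, higher in each pair though the lines overlapped. The RPF log2 fold change was 0.66 (SE 0.12, adjusted p = 0.0198 by edgeR), the total RNA one 0.32 (SE 0.13, adjusted p = 0.215 by edgeR), and its efficiency rose by 0.35 (adjusted p = 0.0761 by edgeR). The RPF call was lost without replicate 2 or 3 and without the replicate block, and the fold change stayed between 0.53 and 0.70 over 11 alternatives. The efficiency call was lost with library size only, without the replicate block and without replicate 1, 2 or 3. Nfe2l1 thus moved against the subunits, most of which were below 0. The list around Nfe2l1 holds 11 genes with Nfe2l1 itself, among them its processing factors Ddi2, Ngly1 and Vcp and the Maf partners. Nfe2l1 was the only call of this list in RPFs, beside 10.3% of all genes called by edgeR. In total RNA 0 of the list were called by edgeR or DESeq2, beside 6.13% of all genes by edgeR. There Nfe2l1 and Mafk had an unadjusted p under 0.05 by edgeR. Vcp, the segregase that pulls Nfe2l1 out of the endoplasmic reticulum, had an RPF log2 fold change of -0.31 (SE 0.12, adjusted p = 0.159 by edgeR). Without replicate 4, 6 of the 11 were called in RPFs by edgeR, where 33.4% of all genes were: Nfe2l1 and its relative Nfe2l3 higher, and Maff, Mafk, Nfe2l2 and Vcp lower. In total RNA Nfe2l1 and Nfe2l3 were then called higher and 3 genes lower, beside 29.8% of all genes called in either direction.

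The rest of the ubiquitin and proteasome pathway gave few calls, in short lists. Among all genes edgeR called 10.3% in RPFs and 6.13% in total RNA, so lists this short would hold few calls in any case. Among 9 further particle parts and assembly factors, such as the chaperone Pomp, the ubiquitin receptor Adrm1 and the nuclear import factor Akirin2, 0 were called in RPFs or total RNA by edgeR or DESeq2, with medians of -0.07 and 0.02, and Akirin2 alone had an unadjusted p under 0.05, in RPFs. Of 5 ubiquitin and activating enzyme genes tested in RPFs, 0 were called or had an unadjusted p under 0.05 by edgeR or DESeq2, and likewise 0 of 6 in total RNA. Of 5 shuttle factors, which carry tagged proteins to the proteasome, Ubqln4 fell, by 0.47 in RPFs (SE 0.15, adjusted p = 0.0986 by edgeR) and by 0.59 in total RNA (SE 0.14, adjusted p = 0.0464 by edgeR). Its RPFs were 39.0, 26.8, 34.2 and 23.3 CPM in KMNTC and 23.9, 22.3, 21.2 and 20.7 CPM in KM4A2cr, lower in each pair. The calls of Ubqln4 were lost without replicate 1, 2 or 3 and without the replicate block, and the RPF call also with DESeq2 (adjusted p = 0.164). Without replicate 4, 3 further particle parts (Akirin2, Pomp and Adrm1) and the activating enzymes Uba1 and Uba6 were called lower in RPFs, beside 14.3% of all genes.

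Most tested genes of antigen processing and the interferon response had fold changes above 0. Of 15 listed, 10 were tested in RPFs, with 2 below 0 and a median log2 fold change of 0.31. The class I heavy chains H2-D1 and H2-K1 rose in RPFs, by 0.69 (SE 0.13, adjusted p = 0.0224 by edgeR) and 0.52 (SE 0.16, adjusted p = 0.0943 by edgeR). They were the 2 calls among the 10 tested, beside 6.60% of all genes called higher. The sequences of these 2 genes are alike, so reads may have been exchanged between them. In total RNA, where the median was 0.27, H2-D1 was the 1 edgeR call among 10 tested, at 0.72 (SE 0.14, adjusted p = 0.0219 by edgeR). Of all genes 4.35% were called higher there by edgeR. With DESeq2, 3 genes of the list were called higher in total RNA. The edgeR calls were lost without replicate 1, 2 or 3 and without the replicate block, and that of H2-K1 also with upper-quartile factors (adjusted p = 0.118 by edgeR). Without replicate 4, 6 genes were called higher and 0 lower by edgeR in each kind of library, beside 33.4% of all genes called in either direction in RPFs and 29.8% in total RNA. They were H2-D1, H2-K1, B2m, Tapbp and Erap1 in both, Tap2 in RPFs and Nlrc5 in total RNA. Ifit1, Ifit3, Isg15 and Gbp2, which interferon induces strongly, were too scarce to be tested in either kind of library, and the interferon-inducible Psmb8, Psmb9 and Psmb10 stood at the levels given above. Tap1, which carries peptides to class I molecules, had 3.67 to 7.15 CPM of RPFs in replicates 1 to 3 of both lines and 44.1 and 61.7 CPM in replicate 4, and its fold change of 0.22 (SE 0.20) was not called by edgeR.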

How the data were processed

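Both kinds of library came from the same lysates of KMNTC and KM4A2cr cells, in 4 replicates per line. The RPF tables that the authors deposited hold whole-number counts for 1 protein-coding transcript of each gene (GENCODE vM27), over the coding sequence without its ends. Reads had been trimmed with cutadapt 1.18, aligned with BBmap and collapsed by molecular identifier with UMI-tools 1.0.1. The deposited total RNA tables hold expected counts and TPM of each isoform, which the authors made with RSEM 1.3.3 from Bowtie2 2.3.5.1 alignments. Here 15235 RPF transcripts were joined to genes, with 0 counts where a library did not list one. Expected counts and TPM were summed over 20622 genes, and the counts were rounded.

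Tests used edgeR 4.0.16 in R 4.3.3 on all genes: filterByExpr, TMM factors and the quasi-likelihood test, blocked by replicate number. Efficiency was the interaction of line and kind of library in 1 model, with lysates and the replicates of each kind as further terms. Adjustment was by Benjamini-Hochberg over all genes tested, at a threshold of 0.1, and intervals are 95%. CPM is TMM-normalised within a kind of library (prior count 2 on the log2 scale), so a global shift in footprints or mRNA cannot be seen. Scarce members have few counts at these depths, and the limit given for a count of 0 covers counting error only.

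Replicate numbers pair the libraries. Across genes, KMNTC and KM4A2cr libraries of the same number deviated together from their line means, with correlations of 0.763, 0.782, 0.575 and 0.687 in RPFs (replicates 1 to 4) and 0.756, 0.736, 0.611 and 0.708 in total RNA. The members, classes, pathway lists and tests were chosen with earlier results of these data known. Named are members past the threshold, catalytic, immunoproteasome and activator subunits, the highest and lowest of each class and members removed by the filter, while Psmb2 and the pathway genes described were picked after their values were seen. Alternatives were DESeq2 1.42.0, 3 other scalings, 2 other filters, a threshold of 0.05, no replicate block, each replicate left out, and counts of the RPF isoform only. The tests were first tried on simulated data. Chromosomes and promoters come from RefSeq (GRCm38.p6), another build than that of the files, and 42 of 50 members had a promoter in the table.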

Additional observations from a re-analysis of the deposited data

Results flagged for a closer look

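In 16 of 104 groups of 4 libraries, 1 library lay far from the others by Dixon's test. The groups covered 26 of the members and other genes named here, and Cd68 was not among them. Chance flags about 1 in 20 independent groups, but genes of 1 library can shift together and some genes were picked after their values were seen. Each of the 16 was replicate 4. In RPFs, Eif4a2 had 389 CPM in KMNTC replicate 4 and 346 CPM in KM4A2cr replicate 4, and its total RNA was 524 CPM in KMNTC. The lid subunit Psmd8 had 968 CPM of RPFs in KM4A2cr, and 553 CPM of total RNA in KMNTC and 848 CPM in KM4A2cr. Psmb1, a beta subunit, had 307 CPM of total RNA in KM4A2cr, the ATPase Psmc1 had 233 CPM and the activator Psme2 had 16.1 CPM, all above the other replicates of that line. Below the others were RPFs of the alpha subunit Psma6 in KM4A2cr (159 CPM), RPFs of the catalytic subunit Psmb6 in KMNTC (74.5 CPM) and total RNA of the lid subunit Psmd6 in KM4A2cr (20.3 CPM). Tap1 had 44.1 CPM of RPFs in KMNTC and 61.7 CPM in KM4A2cr, and 14.6 and 22.6 CPM of total RNA.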

How the results depend on the processing

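The RPF median of all members stayed below 0 in every alternative and moved only with library size as the sole scaling, to -0.315. The 3 members called in RPFs became 2, without Psmb10, at a threshold of 0.05 and with DESeq2. They became 10 with library size only and 0 without the replicate block, and between 0 and 23 with 1 replicate left out. The 1 called in total RNA became 0 at a threshold of 0.05, with DESeq2, with the RPF isoform only and without the replicate block, 7 with library size only, 2 with no filter on low counts (Psmb7 lower and Psmb11 higher), and between 0 and 20 with 1 replicate left out. The 1 called in efficiency became 0 at a threshold of 0.05, with library size only and without the replicate block, 2 with no filter, and between 0 and 1 with 1 replicate left out, where 4, 8 and 3 members had an unadjusted p under 0.05 by edgeR without replicates 1, 2 and 3. Total RNA log2 fold changes that turned sign, none of them called, were those of Psmb10 without replicate 2 (0.109, in a range from -1.014 to 0.109 with 1 replicate left out), Psmc6 with library size only (-0.049) and without replicate 4 (-0.09, in a range from -0.09 to 0.205), and Psmb6 with library size only (-0.007). The cause was not tested. All fits without the replicate block are unpaired. Depth limited Psmb8, Psmb9, Psma8 and Psmb11, and the spread of core subunit footprints per codon was not run, since coding lengths were not used here.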

Other observations

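RPFs relative to total RNA differed widely between subunits of the same particle. The ratio of mean RPF CPM to mean total RNA CPM in KMNTC had a median of 1.65 over 46 members and of 0.861 over all 9989 genes. Psmb2, the scarcest core mRNA, had a ratio of 13.2 in KMNTC and 12.3 in KM4A2cr, at percentile 99.8 of all genes, from 136 ± 14.2 CPM of RPFs and 10.3 ± 0.864 CPM of total RNA (SD, n = 4). Next among the constitutive subunits was Psmb5 with a ratio of 3.72. Neither ratio is corrected for length, and RPFs and total RNA were aligned with different programs to different sets of transcripts.

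Psmb11, the thymus form of a core subunit, had 128 counts of total RNA over 8 libraries and 0 RPFs, with 4.22 and 8.99 CPM of total RNA in replicate 4 of KMNTC and KM4A2cr against 0.947 to 2.94 CPM in the other libraries.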
